A study of Rattus norvegicus with 9 samples.

Results

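The miRNAs described here are the 2 probes of the miR-26 family (rno-miR-26a and rno-miR-26b) and the 3 probes of the miR-181 family (rno-miR-181a, rno-miR-181b and rno-miR-181c) on a rat miRNA array, written below without the species prefix. They were taken by probe name, and they are 5 of the 334 miRNA probes. The study set soleus muscle of control rats beside soleus muscle of rats whose hindlimbs had been suspended by the tail for 2 days or for 7 days. Each of the 3 groups had 3 arrays, 9 altogether. All rats were male Sprague-Dawley rats aged 6 months, and no transgene or drug group was part of the design. Suspension takes the weight off the hindlimbs and was used to induce atrophy of the soleus, a postural muscle of mostly slow fibres. Each rat to be suspended was anaesthetised with pentobarbital while the tail device was attached. The labels do not mention a sham procedure for controls, and nor do they state that replicates are separate animals. The p-values therefore refer to the spread among these samples, which may be technical.

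MiRNAs are short RNAs that guide a silencing complex to mRNAs, mainly by pairing of the seed, bases 2 to 8 of the mature strand. In cultured mouse muscle cells both families increase as myoblasts differentiate: miR-26a is known to repress Ezh2, a histone methyltransferase that keeps muscle genes silent, and miR-181 is known to repress the homeobox factor Hox-A11, an inhibitor of MyoD. MiR-181 is also known from lymphocyte development.

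The mature strands that the probes were made to bind are shown because the family of each probe, and the chance of shared signal, can be read from them. They are the target sequences in the scanner files, 5′ to 3′, with the seed in capitals.
miR-26a: uUCAAGUAauccaggauaggc
miR-26b: uUCAAGUAauucaggauagguu
miR-181a: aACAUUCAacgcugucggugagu
miR-181b: aACAUUCAuugcugucgguggg
miR-181c: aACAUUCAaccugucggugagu
The seed UCAAGUA was carried by miR-26a and miR-26b and the seed ACAUUCA by miR-181a, miR-181b and miR-181c. No other of the 334 probes had either seed.

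Outside the seed the families differed in how alike their members were. Counted from 1 at the 5′ end, miR-26a and miR-26b differed by C11U and C21U, and the miR-26b target ran 1 base further. MiR-181a and miR-181b differed by A9U, C10U and A21G, and miR-181a ran 1 base further. The miR-181c target, of 22 bases, is the 23-base miR-181a target with 1 base left out, at position 11. That edit distance of 1 was the smallest between any of the 5 targets and another probe on the array, and whether the miR-181c probe also took up miR-181a was not tested. Targets of miR-26 and miR-181 were 13 or 14 edits apart. Against RefSeq, the targets of miR-181a and miR-181c were identical to the mature 5p strands, while the RefSeq strand was 1 base longer at the 3′ end for miR-26a and miR-181b and 1 base shorter for miR-26b.

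RefSeq's gene table for the build GRCr8 places the miR-26a hairpin at chr8:127633048-127633137, within the span of Ctdspl, and the miR-26b hairpin at chr9:83425709-83425793, within the span of Ctdsp1. Both host genes encode small phosphatases of the C-terminal domain family. The miR-181a and miR-181b hairpins lie side by side at 2 loci. On chromosome 13 they are 61 bases apart within the span of the non-coding RNA gene LOC108352541. On chromosome 3 they are 986 bases apart within the spans of Nr6a1, a nuclear receptor gene, and of the non-coding RNA gene LOC120101539. The array has 1 probe for miR-181a and 1 for miR-181b and cannot tell these loci apart. MiR-181c lies at chr19:40888291-40888396, with miR-181d 77 bases downstream, and no annotated gene spans it. No probe was named miR-181d. The table does not show whether a hairpin lies in an intron or an exon. Strands of hairpins and of the genes spanning them were not compared.

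Values are scanner brightness in linear units, the mean of 9 repeat spots per probe, and for tests the log2 intensity after background correction and quantile normalisation between arrays. A probe was called detected when most of its spots exceeded the 95th percentile of the array's empty spots, which ran from 31.6 to 73.3 units. The 5 miRNAs were detected on all 9 arrays, with 9 of 9 spots above that limit each time, so all 5 passed the filter that left 178 probes to test. Repeat spots of a probe on an array varied with a median coefficient of variation of 6.61% to 9.62% over the 5 miRNAs. The median brightness of all tested probes ran from 166.3 to 402.1 units over the arrays, and arrays correlated at 0.971 or more with each other. Of 6 striated muscle markers, 5 were detected on all 9 arrays (miR-499, miR-206, miR-1 and both miR-133 probes) and miR-208 on 5.

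Of the 5 miRNAs, miR-26b had the largest fitted shift at 7 days against control, a log2 fold change of 0.35 that limma did not call. Its brightness was 14017, 13726 and 12390 units on the control arrays, 17247, 16799 and 15391 units after 2 days, and 19430, 19772 and 19129 units after 7 days. Each array of a later time was brighter than each array of the earlier one, with no overlap among the 3 groups. In such unnormalised brightness, 24.2% of all tested probes had every 7-day array above every control array, 7.3% every 2-day array above every control array, and 8.43% every 7-day array above every 2-day array. The shares wholly below were 2.25%, 0.562% and 2.25% in the same comparisons. Before normalisation the rise over all 3 groups with no overlap was found for 4 of the 178 tested probes (2.25%), the others being miR-10a, miR-365 and miR-374, which were looked up after the values of miR-26b had been seen. In normalised values 0 of the 178 tested probes, and so not miR-26b either, had this order. Mean brightness was 13378 ± 868 units for control arrays, 16479 ± 969 units at 2 days and 19444 ± 321.9 units at 7 days (SD, n = 3 arrays each).

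**Figure D1:**
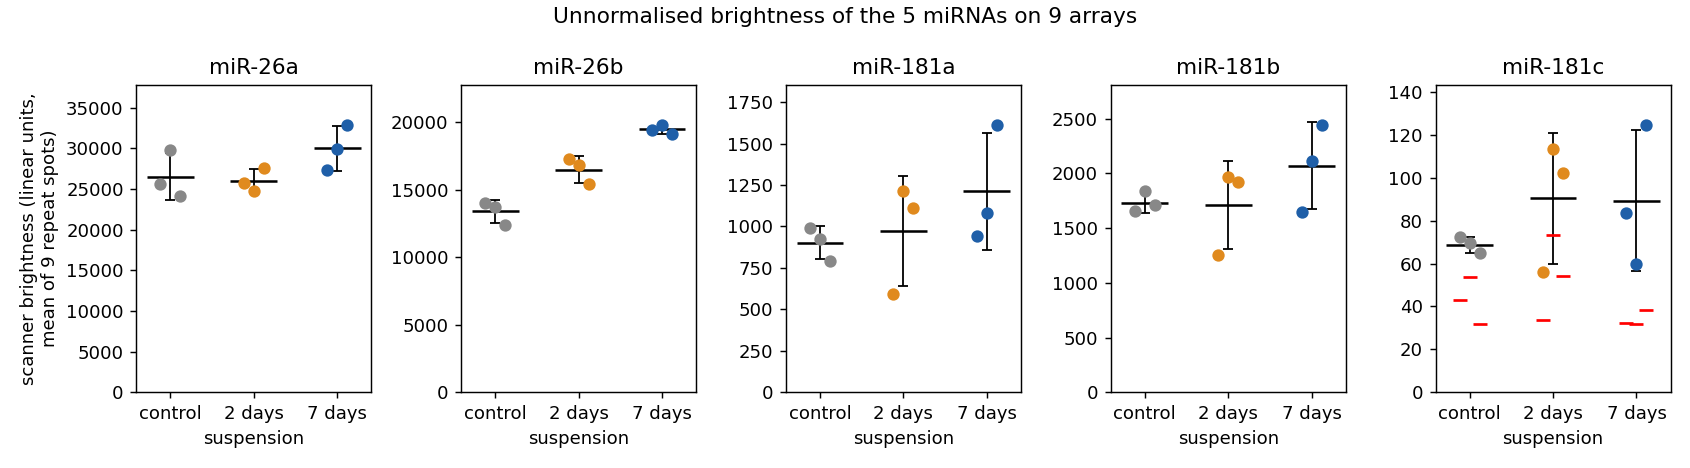
Scanner brightness (linear units, mean of 9 repeat spots, before normalisation) of miR-26a, miR-26b, miR-181a, miR-181b and miR-181c on each array of the control, 2-day and 7-day groups, with the group mean and SD (n = 3) in black and an axis from 0 for each miRNA. In the miR-181c panel red dashes mark the detection limit of each array. The miR-26b groups do not overlap, from 12390 to 14017 units in controls up to 19129 to 19772 after 7 days, while the other miRNAs' groups overlap.

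After normalisation the miR-26b values at 7 days were log2 14.23, 14.15 and 14.04, against 13.87, 13.74 and 13.75 in controls. The 7-day arrays all lay above the control arrays. The log2 fold change was 0.35 ± 0.11 (SE, n = 3 arrays per group), or 1.28-fold, with a 95% interval from 0.11 to 0.60 and a limma adjusted p = 0.235. The difference thus missed the threshold of 0.05 over the 178 tested probes. Limma called 0 of the 5 miRNAs at 7 days against 0% of all tested probes (0 of 178). At an unadjusted p under 0.05 it had 1 of the 5, miR-26b, against 14% of all tested probes (25 of 178).

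The call on miR-26b at 7 days depended on the processing. Without normalisation between arrays limma called it (log2 fold change 0.54, adjusted p = 0.0276), and with array weights too (0.39, adjusted p = 0.0385). Each of these settings called 10 of all 178 tested probes at 7 days. In all other settings miR-26b was not called, and its adjusted p reached 0.787 with median centring (0.24). Scaling moved the median of all tested probes at 7 days from -0.23 with 75th percentile centring to 0.14 without normalisation. Set against that median, miR-26b stood between 0.38 and 0.40 in the 5 scalings run, the unscaled data included. Both centrings and no normalisation differ by a constant per array only, so they give the same relative value by construction. With each array left out in turn the log2 fold change ran from 0.31 to 0.40.

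After 2 days miR-26b stood at log2 14.15, 14.13 and 13.84, against 13.87, 13.74 and 13.75 in controls. The first and second 2-day arrays lay above the control arrays, and the third fell among them. The log2 fold change was 0.25 ± 0.11 (95% interval 0.00 to 0.50, limma adjusted p = 0.711), and 0.19 to 0.35 with each array left out in turn. Limma called 0 of the 5 miRNAs at 2 days, against 0.562% of all tested probes (1 of 178). At an unadjusted p under 0.05 it had miR-26b alone, against 6.74% of all tested probes (12 of 178). In normalised values none of the 5 miRNAs had its 2-day arrays wholly above or below the controls, against 2.25% of tested probes wholly above and 5.62% wholly below. Between 7 and 2 days the log2 fold change of miR-26b was 0.10 ± 0.11 (adjusted p = 0.948), where limma called 0 of the 5, against 0% of all tested probes. At an unadjusted p under 0.05 it had 0 of the 5, against 5.62% of all tested probes (10 of 178). Normalised groups at 7 and 2 days overlapped for all 5, against 5.06% of tested probes wholly above and 1.12% wholly below.

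Each of the 9 spot positions of the miR-26b probe can be compared, in quantile-normalised values, with the same position on the other arrays. At 7 days all 9 positions were higher than in controls, by 0.25 to 0.41 log2 units, and at 2 days all 9 were higher, by 0.10 to 0.40. These positions share the RNA sample of their array and are no replicates of a condition. In the authors' value table, which holds their own processed intensities of the same arrays, miR-26b had values of 19183, 17952 and 16792 at 7 days, against 14897, 13734 and 13741 in controls. The groups again did not overlap, and the log2 fold change was 0.35 (limma adjusted p = 0.316). After 2 days the table held 18979, 17705 and 14045, which overlapped the controls.

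MiR-26a, with the same seed, had smaller fitted differences. Its brightness was 25607, 29810 and 24162 units on the control arrays, 25757, 24758 and 27626 units after 2 days, and 27314, 29904 and 32877 units after 7 days. The mean brightness at 7 days was 1.13 times that of controls, and all 3 groups overlapped. After normalisation its log2 values ran from 14.64 to 14.81 over all 9 arrays. Its log2 fold change was 0.06 ± 0.08 at 7 days (95% interval -0.11 to 0.24, limma adjusted p = 0.925) and 0.03 ± 0.08 at 2 days (-0.14 to 0.21, adjusted p = 0.977). The probe lies near the top of the brightness scale, where quantile normalisation brings arrays close together. Its sign at 7 days was not stable, with -0.12 under median centring, -0.19 under 75th percentile centring and 0.18 without normalisation.

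**Figure D2:**
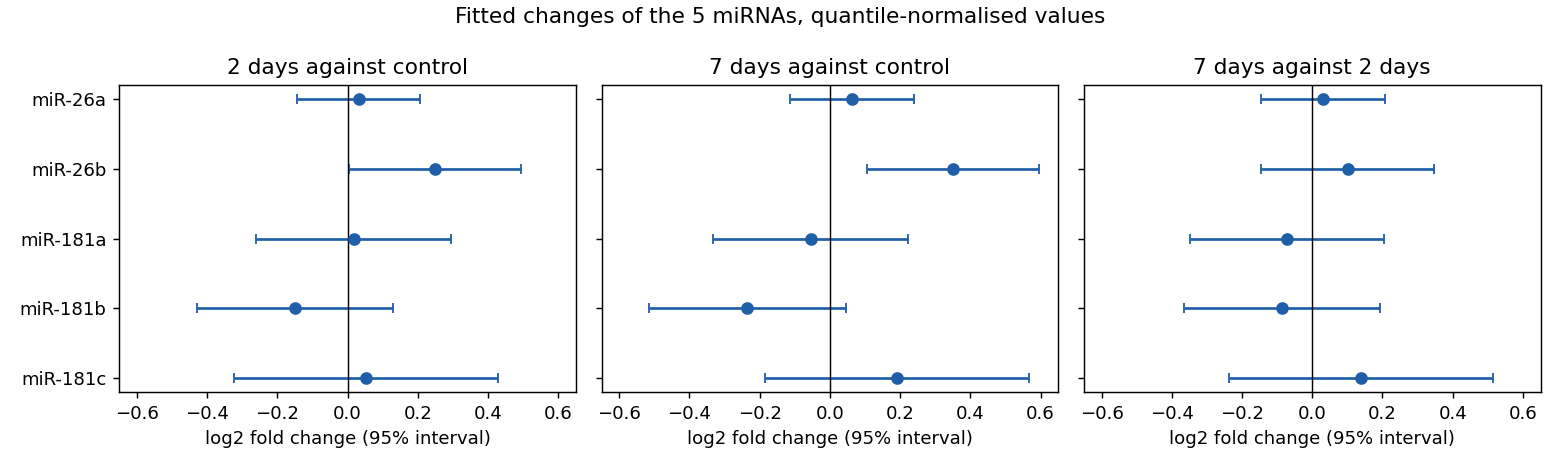
Fitted log2 fold changes of the 5 miRNAs with their 95% intervals (limma, quantile-normalised values, 3 arrays per group) in the 3 comparisons among the groups. At 7 days against control miR-26b stands at 0.35 with an interval from 0.11 to 0.60, miR-181b at -0.23 with an interval from -0.51 to 0.04, and no miRNA passes the adjusted threshold in any comparison.

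The miR-26 probes were also compared within each array, since a difference between probes on an array is free of a constant shift of that array. MiR-26b minus miR-26a was -0.55, -0.60 and -0.75 log2 units on the 7-day arrays, against -0.82, -1.05 and -0.89 on the control arrays. The groups did not overlap. The mean difference was -0.63 ± 0.10 at 7 days and -0.92 ± 0.12 in controls (SD, n = 3 arrays each), so miR-26b gained 0.29 log2 units on miR-26a. Exact permutation of the arrays, two-sided, gave p = 0.1, the smallest that 3 against 3 arrays allow, and 0.48 after Benjamini-Hochberg adjustment over the 12 differences tested within families. Such separation is common between these groups: of all 15753 pairs of tested probes, 24.7% had differences that did not overlap between 7 days and control. At 2 days the same difference was -0.66, -0.61 and -0.83 (mean -0.70 ± 0.11), against -0.92 ± 0.12 in controls, with overlapping groups (exact permutation p = 0.2, adjusted p = 0.48). Over the alternative settings the gain ran from 0.22 to 0.36 at 7 days and from 0.15 to 0.33 at 2 days. In the authors' value table the 7-day and control groups of this difference overlapped (gain 0.28, exact permutation p = 0.2). At 2 days the groups separated with both centrings and without normalisation (gain 0.32, exact permutation p = 0.1), and with the median of repeat spots (gain 0.23, p = 0.1).

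**Figure D3:**
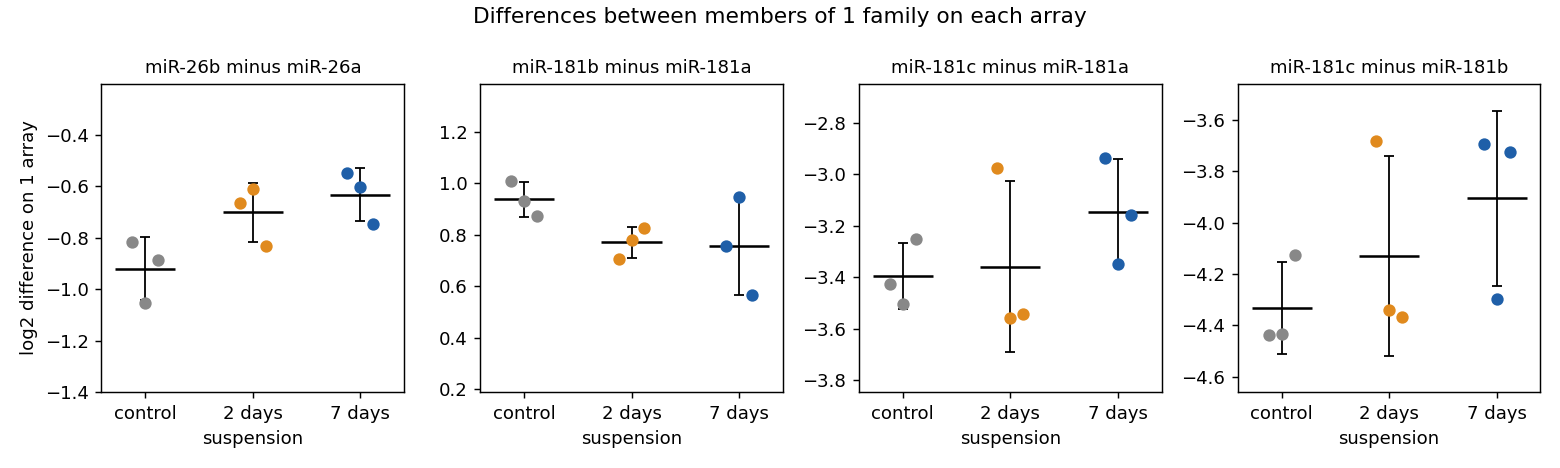
Log2 difference between 2 probes of a family on each array (quantile-normalised values) for miR-26b minus miR-26a, miR-181b minus miR-181a, miR-181c minus miR-181a and miR-181c minus miR-181b in the control, 2-day and 7-day groups, with group mean and SD (n = 3) in black. Each axis spans the same range of log2 units. MiR-26b minus miR-26a is higher on every 7-day array (-0.75 to -0.55) than on every control array (-1.05 to -0.82), a separation that the authors' value table does not show. MiR-181b minus miR-181a is lower on every 2-day array (0.71 to 0.82) than on every control array (0.87 to 1.01) in these quantile-normalised values, while the groups overlap with both centrings, without normalisation, with cyclic loess and in the authors' value table.

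In the miR-181 family no probe was called. At 7 days against control the direction of each probe depended on the scaling or on a few arrays. At 2 days against control miR-181b was below 0 in all 26 alternatives. Other detection filters, the unmoderated fit and the replicate block keep that value by construction. Without 2-day array 1 it was -0.03, and relative to the median of all tested probes it was then 0.02. MiR-181b had brightness values of 1654, 1834 and 1710 units in controls, 1251, 1965 and 1921 units after 2 days, and 1650, 2116 and 2442 units after 7 days. The suspended arrays spread over a wider range than the controls and overlapped them. After quantile normalisation the 7-day values were log2 10.59, 10.82 and 10.74, against 11.03, 10.89 and 10.93 in controls, all 7-day arrays below all control arrays. The log2 fold change was -0.23 ± 0.12 (95% interval -0.51 to 0.04, limma adjusted p = 0.508). Its groups are among the 12.4% of tested probes (22 of 178) whose 7-day arrays all lay below the controls, while those of miR-26b are among the 11.2% (20 of 178) whose 7-day arrays all lay above.

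That lower value of miR-181b rested on the normalisation. It stood at -0.07 and -0.14 with median and 75th percentile centring, at -0.10 with cyclic loess and at 0.23 with no normalisation. Relative to the median of all tested probes it ran from -0.20 with quantile normalisation to 0.09 with both centrings. At 2 days it stood at -0.15 ± 0.12 (95% interval -0.43 to 0.13, limma adjusted p = 0.913), with the first 2-day array lowest, at log2 10.56. Without that array the log2 fold change at 2 days was -0.03, and the alternatives spanned -0.27 to -0.03. In quantile-normalised values all 9 spot positions were lower than in controls at both times. The differences were 0.09 to 0.37 log2 units at 7 days and 0.02 to 0.34 at 2 days. These positions carry the same normalisation and are no separate evidence.

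MiR-181a, encoded beside miR-181b, had 991, 922 and 793 units in controls, 595, 1216 and 1110 units after 2 days, and 943, 1080 and 1612 units after 7 days. The first 2-day array was the dimmest and the third 7-day array the brightest of all 9, and the groups overlapped. After normalisation its log2 fold change was -0.05 ± 0.12 at 7 days (95% interval -0.33 to 0.22, limma adjusted p = 0.950) and 0.02 ± 0.12 at 2 days (-0.26 to 0.29, adjusted p = 0.977). Relative to the median of all tested probes it ran from -0.02 to 0.24 at 7 days over the 5 scalings, the higher value belonging to the centrings.

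On each array miR-181b can be set against miR-181a. This difference was 0.71, 0.78 and 0.82 log2 units on the 2-day arrays, against 1.01, 0.93 and 0.87 on the control arrays, with no overlap (mean shift -0.17, exact two-sided permutation p = 0.1, adjusted p = 0.48). Among all pairs of tested probes 8.44% did not overlap between 2 days and control. At 7 days it was 0.76, 0.95 and 0.57, a mean shift of -0.18 with overlap of the controls (exact permutation p = 0.3, adjusted p = 0.514). None of the 4 differences within families separated 7 from 2 days, against 9.08% of all pairs of tested probes. The separation at 2 days was found with quantile normalisation and was lost in the other scalings: the groups overlapped with both centrings and without normalisation (shift -0.09, exact permutation p = 0.7), with cyclic loess (-0.06, p = 0.8) and in the authors' value table (-0.10, p = 0.6). It was also lost with the median of repeat spots (-0.15, exact permutation p = 0.2). The sign of the shift was below 0 in all 19 alternatives at each time, from -0.20 to -0.06 at 2 days and from -0.25 to -0.09 at 7 days, where -0.09 was the value without 7-day array 3.

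MiR-181c was dim. It had 72.2, 69.6 and 64.8 units in controls, 55.9, 113.7 and 102.1 units after 2 days, and 83.6, 59.9 and 124.6 units after 7 days, which is 1.30 to 3.24 times the detection limit of its array. The control arrays were close together and the suspended arrays lay on both sides of them. The log2 fold change was 0.19 ± 0.16 at 7 days (95% interval -0.18 to 0.57, limma adjusted p = 0.826) and 0.05 ± 0.16 at 2 days (-0.32 to 0.43, adjusted p = 0.977). Leaving out 7-day array 3 or control array 2 lowered the 7-day value to 0.09 and 0.11, and leaving out 7-day array 2 or control array 3 gave 0.33 and 0.29. In quantile-normalised values all 9 spot positions were higher than in controls at 7 days, by 0.04 to 0.37. Yet median and 75th percentile centring gave -0.05 and -0.12 for miR-181c. In the authors' value table it held 74, 34 and 72 at 7 days, against 35, 35 and 62 in controls. MiR-181c minus miR-181a stood 0.25 log2 units higher at 7 days than in controls (exact permutation p = 0.2, adjusted p = 0.48), and the sign of this shift turned, to -0.14, with both centrings and without normalisation.

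The other arm of a miR-181a hairpin, miR-181a*, had a probe of its own. Its brightness of 30.3 to 46.3 units was 0.617 to 1.04 times the detection limit, it was detected on 3 of 9 arrays (control array 3 and 7-day arrays 1 and 2), and it was not tested. Probes named miR-26b*, miR-213 or miR-181c* were not among the 334.

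**Figure D4:**
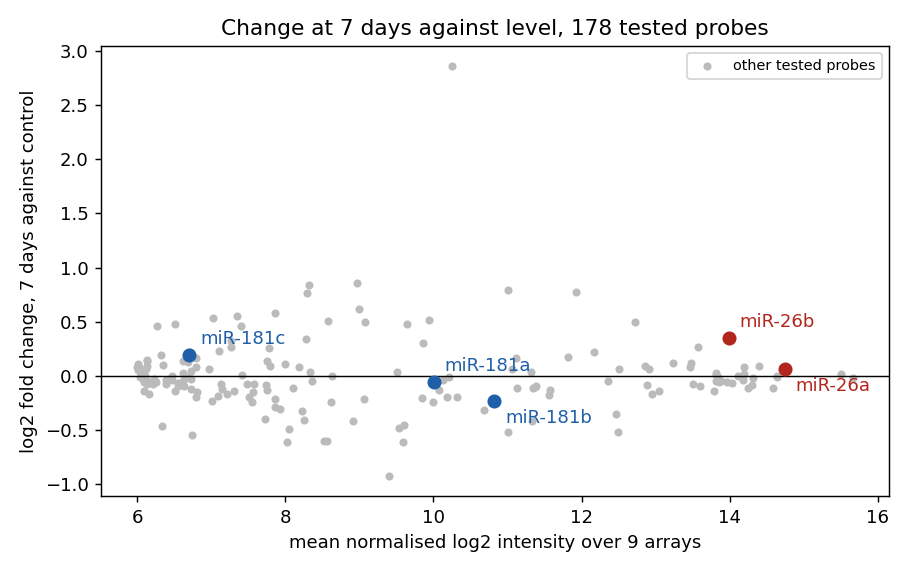
Log2 fold change at 7 days against control (vertical axis) against the mean normalised log2 intensity over 9 arrays (horizontal axis) for the 178 tested probes, with miR-26a and miR-26b in red and miR-181a, miR-181b and miR-181c in blue. MiR-26b, at 0.35, lies at the upper edge of the bright probes, while the miR-181 probes, at -0.23 to 0.19, lie within the spread of probes of like intensity.

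Set side by side, the miR-26 probes averaged a log2 fold change of 0.21 at 7 days and the miR-181 probes -0.03. Members of a family did not share these averages. MiR-26b stood at 0.35 and miR-26a at 0.06, while miR-181b, miR-181a and the dim miR-181c stood at -0.23, -0.05 and 0.19. On the arrays, the mean of the miR-26 probes minus that of the miR-181 probes, each probe centred on its own mean, was 0.10 ± 0.17 at 7 days, 0.03 ± 0.16 at 2 days and -0.14 ± 0.12 in controls (SD, n = 3 arrays each). The ranges overlapped, from -0.09 to 0.21 at 7 days against -0.26 to -0.02 in controls. No test was made of this family score. The gap at 7 days was 0.24 log2 units with quantile normalisation, 0.15 with cyclic loess and 0.07 with both centrings or none. Both centrings and no normalisation differ by a constant per array only, so they give the same gap by construction. The median log2 fold change of the 5 miRNAs was 0.06 at 7 days and 0.03 at 2 days, beside -0.03 and -0.05 for all 178 tested probes, with 3 of 5 and 4 of 5 above 0 beside 74 and 71 of 178.

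**Figure D5:**
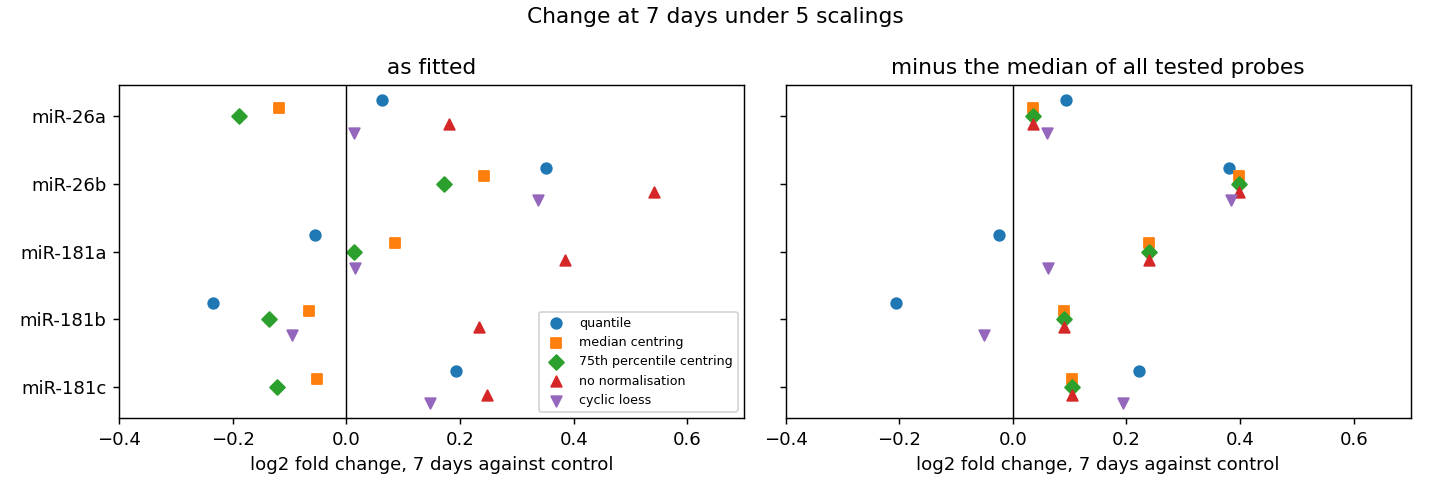
Log2 fold change of each miRNA at 7 days against control under quantile normalisation, median centring, 75th percentile centring, no normalisation and cyclic loess, as fitted (left) and minus the median of all tested probes under the same scaling (right). MiR-26b lies between 0.17 and 0.54 as fitted and between 0.38 and 0.40 relative to that median, whereas miR-181b runs from -0.23 to 0.23 as fitted.

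The 5 miRNAs also differed in spread. The SD between arrays of a group, pooled over groups, was 0.06 log2 units for miR-26a, 0.12 for miR-26b, 0.14 for miR-181a and miR-181b and 0.21 for miR-181c, beside a median of 0.21 over all tested probes. In intensity, miR-26a ranked 3, miR-26b 16, miR-181a 64, miR-181b 56 and miR-181c 135 from the brightest. Quantile normalisation brings arrays close together near the top of that scale, and its part in these SDs was not tested. The probes most like each miRNA were those with the smallest root mean square difference over the 9 arrays after each probe was centred on its own mean. For miR-26b these were let-7e (0.13 log2 units), miR-190 (0.15) and miR-26a (0.15), beside a median of 0.28 over all tested probes. For miR-26a they were miR-206, miR-1 and miR-23b (0.06 to 0.07, median 0.23). For miR-181a they were miR-143, miR-324-5p and miR-133a (0.06 to 0.08, median 0.24), and for miR-181b miR-133b, miR-133a and miR-324-5p (0.08 to 0.09, median 0.26). For miR-181c they were miR-205, miR-542-5p and miR-424 (0.15 to 0.16, median 0.28). All 5 were set against the same 9 arrays, and low distances belong to probes that vary little.

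Among other miRNAs known to promote muscle differentiation, 16 of 18 listed were tested, miR-486 having no probe of that name and miR-34c being detected on no array. Limma called 0 of 16 at either time. At 7 days 6 had higher and 10 lower values (median log2 fold change -0.05), and at 2 days 5 had higher and 11 lower values (median -0.07). MiR-29b, which represses collagens and is known to promote myogenic differentiation, stood at 0.78 ± 0.33 at 7 days (limma adjusted p = 0.345), and miR-214, also typical of fibroblasts, at -0.52 ± 0.19 (adjusted p = 0.277). A further list of 7 miRNAs was drawn up for proliferating myoblasts, but miR-489 and miR-31 in it are also satellite cell miRNAs. Counts for this list therefore do not describe a single cell state, and whether each miRNA is particular to proliferation was not tested. Of the 7 listed, 6 were tested and 0 called, with 3 higher and 3 lower at 7 days (median 0.01). At 2 days 1 was higher and 5 were lower (median -0.16). The 3 higher at 7 days were miR-489 at 0.23, miR-31 at 0.06 and miR-125b at 0.03. The lowest were miR-222, at -0.61 ± 0.11 at 7 days (limma adjusted p = 0.0874) and -0.54 ± 0.11 at 2 days (adjusted p = 0.0599), and miR-221, at -0.60 ± 0.12 at 7 days (adjusted p = 0.0946) and -0.50 ± 0.12 at 2 days (adjusted p = 0.131). Both repress the cell cycle inhibitor p27.

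In whole muscle, fewer cells of a type and less of an RNA per cell cannot be told apart. Marker lists for other cell types are given as summed brightness in linear units and as normalised log2 fold changes. The sums are unnormalised. On that scale 24.2% of all tested probes had every 7-day array above every control array. The median log2 fold change of all tested probes at 7 days without normalisation was 0.14. Of the blood cell markers 3 of 6 were detected on all 9 arrays, while miR-142-3p and miR-144 were detected on none. They summed to 6139 to 8200 units in controls, 6896 to 8090 at 2 days and 8152 to 9689 at 7 days. Of the 3 tested, 1 had a higher and 2 had lower normalised values at 7 days (median -0.24), and all 3 were lower at 2 days (median -0.50). At 7 days these were miR-150 at 0.07 ± 0.19, miR-223 at -0.24 ± 0.42 and miR-451, typical of red blood cells, at -0.92 ± 0.35 (limma adjusted p = 0.283). The endothelial markers, 4 of 4 detected on all arrays, summed to 17124 to 20048 units in controls, 18426 to 19412 at 2 days and 22060 to 25196.5 at 7 days. In normalised values 2 were higher and 2 lower at 7 days (median -0.30), with miR-126* at 2.86 ± 0.70 (limma adjusted p = 0.138), miR-126 at 0.00 ± 0.08, and miR-221 and miR-222 as given above. The smooth muscle and fibroblast markers, 4 of 4 detected on all arrays, summed to 14484 to 18476.5 units in controls, 10622 to 19781 at 2 days and 14160 to 20287.5 at 7 days, with overlapping ranges. In normalised values all 4 were lower at 7 days (median -0.52) and at 2 days (median -0.20). Nerve markers had 2 of 6 detected on all arrays and miR-219 on none, and summed to 4510 to 6234 units in controls, 4036 to 6585 at 2 days and 5450 to 7498 at 7 days. Of the 3 tested, 1 was higher and 2 lower at 7 days (median -0.10) and at 2 days (median -0.25). Limma called 0 of the tested markers in each of these lists at either time. Their part in the values of the miR-26 and miR-181 probes was not tested.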

How the data were processed

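MiRNAs were measured in 9 soleus samples (3 control, 3 after 2 days and 3 after 7 days of hindlimb suspension), 1 array each. Per the labels' protocols, small RNAs from 5 µg of total RNA were given a poly(A) tail and a tag, stained with Cy5 and hybridised to a microfluidic chip by a service provider. Each deposited scanner file gives, per the file headers, a mean brightness (intensity, linear scale) for every spot; commas inside the larger values were removed. Not given in the sources used here are the image software and any background step before deposit. The authors' deposited value table holds whole-number intensity values of 162 probes, lowest value 1, with column medians of 306 to 403.5; its log2 values correlated with log2 brightness at 0.959 to 0.994, so its direction is the same, while its scale was taken as linear and its centring stays unknown.

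In R 4.3.3 with limma 3.58.1, intensities were corrected with normexp (offset 50) on all spots, since the files hold no local background, miRNA spots were quantile normalised on the log2 scale, and 9 repeat spots were averaged. Of 334 probes, 178 were tested: those detected on all arrays of 1 group or more, detected meaning more than 0.5 of spots above the 95th percentile of 614 empty spots. This detection rule was settled after the files had been seen. One mean per group was fitted with lmFit and eBayes (7.78 degrees of freedom), with Benjamini-Hochberg adjustment over 178 probes and a threshold of 0.05. Precision is limited by 3 arrays per group (median SE 0.166 log2 units). Differences within a family were compared by exact permutation over arrays. The fit was tested on simulated data.

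Named miRNAs were the 5 probes, other arms of their hairpins, the 3 probes nearest each, 2 lists of muscle miRNAs and marker lists. The members and lists were chosen with earlier results of these data known. Replicate numbers are shared by the groups, but same-numbered arrays deviated together (correlation over 0.1) in 3 of 9 pairs only (-0.40 to 0.35), so they were not taken as paired. The files give no slide or scan batch. Sequences and loci come from the scanner files and RefSeq tables (GRCr8).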

Additional observations from a re-analysis of the deposited data

How the results depend on the processing

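There were 37 results, with 26 alternatives for single miRNAs and 19 for pairs. Of the values for single miRNAs or pairs, 552 were counted as the same, 2 became called and 64 changed sign. A pair that kept its sign but lost its separation still counts as the same. Other detection filters, the unmoderated fit and the replicate block keep each log2 fold change by construction, so the 552 overstates stability. Of the counts and family gaps, 32 values moved and 200 did not. The cause of these changes was not tested. Dim signal limits miR-181c, and 3 arrays per group limit all. Values are log2 differences.

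MiR-26b stayed above 0 in all alternatives, from 0.17 to 0.54 at 7 days against control (adjusted p 0.0276 to 0.787), from 0.08 to 0.35 at 2 days against control and from 0.00 to 0.24 at 7 against 2 days. Limma called 1 of the 5 miRNAs at 7 days without normalisation and with array weights, 0 otherwise. Those settings each called 10 of all 178 tested probes at 7 days.

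At 7 days against control, median centring gave -0.12 for miR-26a, 0.085 for miR-181a and -0.051 for miR-181c, and 75th percentile centring -0.19, 0.013 and -0.12. Without normalisation miR-181a stood at 0.38 and miR-181b at 0.23, and with cyclic loess miR-181a at 0.015. With both centrings and without normalisation miR-181c minus miR-181a was -0.14 and the family gap 0.073.

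At 2 days against control, miR-26a stood at -0.24 with median centring, -0.21 with 75th percentile centring, -0.022 without normalisation, -0.020 with cyclic loess, -0.00043 with array weights and -0.077 in the authors' value table (pseudocount 1 or 50). MiR-181a stood at -0.18, -0.15 and -0.11 with median centring, 75th percentile centring and cyclic loess, and at -0.11 in the authors' table with either pseudocount. MiR-181c stood at -0.015 with array weights, and miR-181c minus miR-181a at -0.020 with the median of repeat spots.

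At 7 against 2 days, miR-181a stood at 0.26, 0.16, 0.34 and 0.12 and miR-181b at 0.20, 0.10, 0.28 and 0.074 with median centring, 75th percentile centring, no normalisation and cyclic loess; in the authors' table miR-181a stood at 0.030 and 0.029 with pseudocounts 1 and 50, and miR-181b at 0.0070 and 0.0069. MiR-181c stood at -0.072 and -0.17 with the centrings. MiR-181c minus miR-181a was -0.33 and miR-181c minus miR-181b -0.28 with both centrings and without normalisation, -0.068 and -0.021 with cyclic loess. MiR-26b minus miR-26a was -0.041 in the authors' table.

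With each array left out in turn, values at 2 days against control ran from -0.0035 to 0.076 for miR-26a, from -0.032 to 0.093 for miR-181a, from -0.052 to 0.15 for miR-181c, from -0.14 to 0.14 for miR-181c minus miR-181a and from -0.022 to 0.32 for miR-181c minus miR-181b; the lowest values of the last 3 and of miR-26a came without 2-day array 1. MiR-181a ran from -0.16 to 0.0094 at 7 days against control, the highest value without 7-day array 1. At 7 against 2 days miR-26a ran from -0.0024 to 0.066 and miR-181b minus miR-181a from -0.097 to 0.082.

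Probes called at 2 days numbered 1. They numbered 0 with both centrings, no normalisation or only the 2 groups compared, 2 without the detection filter or unmoderated, 4 with array weights and 0 to 4 with an array left out (4 without 2-day array 1). At 7 days the count was 0, at an unadjusted p under 0.05 it was 25. It was 1 with median centring, 10 without normalisation and with array weights, 5 with only the 2 groups, 2 in the authors' table with either pseudocount and 0 to 3 with an array left out (3 without 2-day array 1). Of the 12 differences within families, 2 did not overlap, 3 with both centrings and without normalisation (miR-26b minus miR-26a at 2 and 7 days and miR-181c minus miR-181b at 2 days, against control), 0 and 1 in the authors' table (pseudocount 1 and 50), and 2 to 5 with an array left out (5 without control array 3, 2-day array 1 or 7-day array 2). With quantile normalisation the share over all pairs of tested probes was 8.44% at 2 days and 24.7% at 7 days against control. It was 9.08% at 7 against 2 days, and was not taken for the alternatives. Groups of 2 arrays separate more easily than groups of 3, so counts with an array left out are not comparable. The differences within the miR-181 family are not independent of each other.

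The replicate numbers give no pairing, and with the replicate block miR-26b had an adjusted p of 0.180 at 7 days (0.35); the counts of probes called were 1 at 2 days and 0 at 7 days, and none of the 5 miRNAs was called.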
